A study of Mus musculus with 12 samples.

Results

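The RNA levels of 10 genes that build the ATG8 conjugation machinery of autophagy were measured in 562 vascular tumor cells of the mouse. The genes were chosen by their known function, with earlier results of these data known. They are Atg7, Atg3, Atg10, Atg12, Atg5 and Atg16l1, which act in the conjugation reactions, and Map1lc3b, Gabarap, Gabarapl1 and Gabarapl2, which encode the ATG8 proteins that are conjugated. All 10 were listed among the 14851 genes of each deposited table and all 10 passed the filter on low values in every comparison. Atg5 and Atg7 were themselves the targets of KO in groups of this series.

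Macroautophagy encloses cytoplasm in a double membrane, and its conjugation machinery attaches small ubiquitin-like proteins of the ATG8 family to phosphatidylethanolamine in that membrane. ATG7 activates both ATG12 and the ATG8 proteins, ATG10 passes ATG12 to ATG5, and the ATG12-ATG5 conjugate held by ATG16L1 then directs ATG3 to transfer the ATG8 protein to the lipid. FIP200 acts earlier, in the ULK1 complex that starts the autophagosome, and is not an enzyme of either reaction. The proteins work after translation, so an RNA level does not report how much ATG8 was conjugated.

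The 562 line arose by spontaneous immortalization from cutaneous tumors of Tsc1 f/f;Scl-Cre mice, whose Cre is active in endothelial cells after tamoxifen, so every group, the control included, lacks Tsc1 and is a single line of C57BL/6 strain. The label genotype of the control is wildtype, and its cells received a guide against EGFP. The KO cells (Fip200 KO, Atg7 KO, Atg5 KO) were made by CRISPR-Cas9 with lentiviral guides and puromycin selection, with 1 guide each for Atg5 and Atg7 and a pair of guides for Fip200, of which the one sequenced is not given in the sources used here. The sources call the 3 libraries of each group independent replicates and do not say whether they came from separate KO derivations, so p-values measure the spread between these 12 libraries only.

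Between 17266926 and 23629730 reads were counted on the listed genes per library, and the members held between 64 and 5968 reads each. The lowest of these, 64 reads, has an exact Poisson 95% interval of 49.3 to 81.7, which covers counting error only. The labelled lymphatic endothelial identity was checked against markers: 7 of 7 endothelial genes had a mean of at least 1 RPKM (reads scaled to gene length and to the total of the library) in every group, and so did 3 or 4 of the 5 lymphatic endothelial genes, of which Ccl21a was not a row of the tables. Prox1, the defining lymphatic factor, was low and uneven, at 0.153 to 1.35 RPKM in control, 0.0366 to 1.02 with Fip200 KO, 0.134 to 3.90 with Atg5 KO and 0.0420 to 5.79 with Atg7 KO. Several markers moved with the groups. Cdh5 (log2 fold change 1.28), Kdr (1.35), Tie1 (0.76), Lyve1 (1.254), Flt4 (0.80) and Acta2 (1.496) were called higher in Atg5 KO cells. In Atg7 KO cells Lyve1 (1.11) was called higher, while none of the markers tested was called in Fip200 KO cells. Col1a2 (1.64) was also called higher in Atg7 KO cells, at 1.11, 0.756 and 1.54 RPKM against 0.0202, 0.0162 and 0.00969 in control. It passed the filter on low values only through those Atg7 KO libraries, so its call is no separate support. Against control it was not tested in Atg5 KO or Fip200 KO cells. Krt8 of epithelium and Ptprc of blood cells stayed under 1 RPKM in all 12 libraries (Epcam, Cdh1 and Cd3e of these lists were not rows), and the summed RPKM of 6 fibroblast or mural markers ran from 1.13 to 70.7 in the control libraries and from 1.78 to 16.2 in the KO libraries. Control replicate 2 stood apart at 70.7, with Dcn at 56.9 RPKM against 15.2 in replicate 3 and 0.125 in replicate 1, and with the lowest Cdh5 of all libraries (116 RPKM). The part of these marker shifts in the levels of the members was not tested, and the values without control replicate 2 are given with the counts. Library names in the labels begin with 3 prefixes, called A, B and C here. Control replicate 1 and all Fip200 KO libraries carry A, control replicates 2 and 3 and Atg5 KO replicates 1 and 2 carry B, and Atg5 KO replicate 3 and all Atg7 KO libraries carry C. No control library carries C, so Atg7 KO and prefix C cannot be told apart against the control except through that 1 Atg5 KO library. Between libraries of a group the chi-square per degree of freedom was 135 to 297 in Fip200 KO, 48.5 to 135 in control, 48.6 to 135 in Atg7 KO and 8.19 to 65.2 in Atg5 KO.

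The ATG8 genes are shown first by the end of their coding sequence, because this is where the proteins are cut and joined to the lipid. The ATG4 proteases remove the residues behind a glycine, and that glycine is what ATG7 and ATG3 handle. The last 15 codons before the stop are given 5′ to 3′ from the transcripts of GENCODE M21 (GRCm38), with the glycine codon in capitals.
Map1lc3b: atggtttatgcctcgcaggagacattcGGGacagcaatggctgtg
Gabarap: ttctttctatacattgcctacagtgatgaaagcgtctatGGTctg
Gabarapl1: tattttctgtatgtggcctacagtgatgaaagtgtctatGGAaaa
Gabarapl2: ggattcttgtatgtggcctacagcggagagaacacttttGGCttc
Behind the glycine codon Map1lc3b has 5 codons, and Gabarap, Gabarapl1 and Gabarapl2 have 1 each. Over the whole coding sequence Gabarap and Gabarapl1 were 74.9% identical, and the other pairs were 57.1% to 63.8% identical. Reads can be shared with other genes where sequences match. Of the 50-base stretches of the Gabarapl1 transcript 18.6% also occur in transcripts of other genes, on either strand. The shares were 17.0% for Gabarapl2 and 13.8% for Map1lc3b, against 0 for Gabarap, Atg3, Atg5, Atg7 and Atg16l1. Matches on the same and on the opposite strand were not told apart. The main holders of these stretches, 1700101I11Rik, Gm3724 and Gm6055, are not rows of the tables used here. The levels of these 3 ATG8 genes are uncertain up to that extent.

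In control cells the ATG8 genes were far above the genes for the enzymes, on the RPKM scale, which is per length and lets genes be compared. Gabarap was highest at 213 ± 17.6 RPKM (SD, n = 3), followed by Map1lc3b at 118 ± 16.9, Gabarapl2 at 87.4 ± 11.5 and Gabarapl1 at 60.4 ± 10.96. The libraries of these 4 neighbours did not overlap. Atg12 at 24.0 ± 9.99, Atg3 at 22.4 ± 1.58 and Atg7 at 21.1 ± 3.48 RPKM came next, with overlapping libraries. Atg16l1 at 13.5 ± 0.864 and Atg5 at 11.9 ± 1.98 RPKM also overlapped, and both lay below Atg3 and Atg7 in every control library. Atg10, which encodes the E2-like enzyme of the ATG12 reaction, was lowest at 4.52 ± 0.497 RPKM, so that the mean of Gabarap was 47.2 times that of Atg10.

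**Figure D1:**
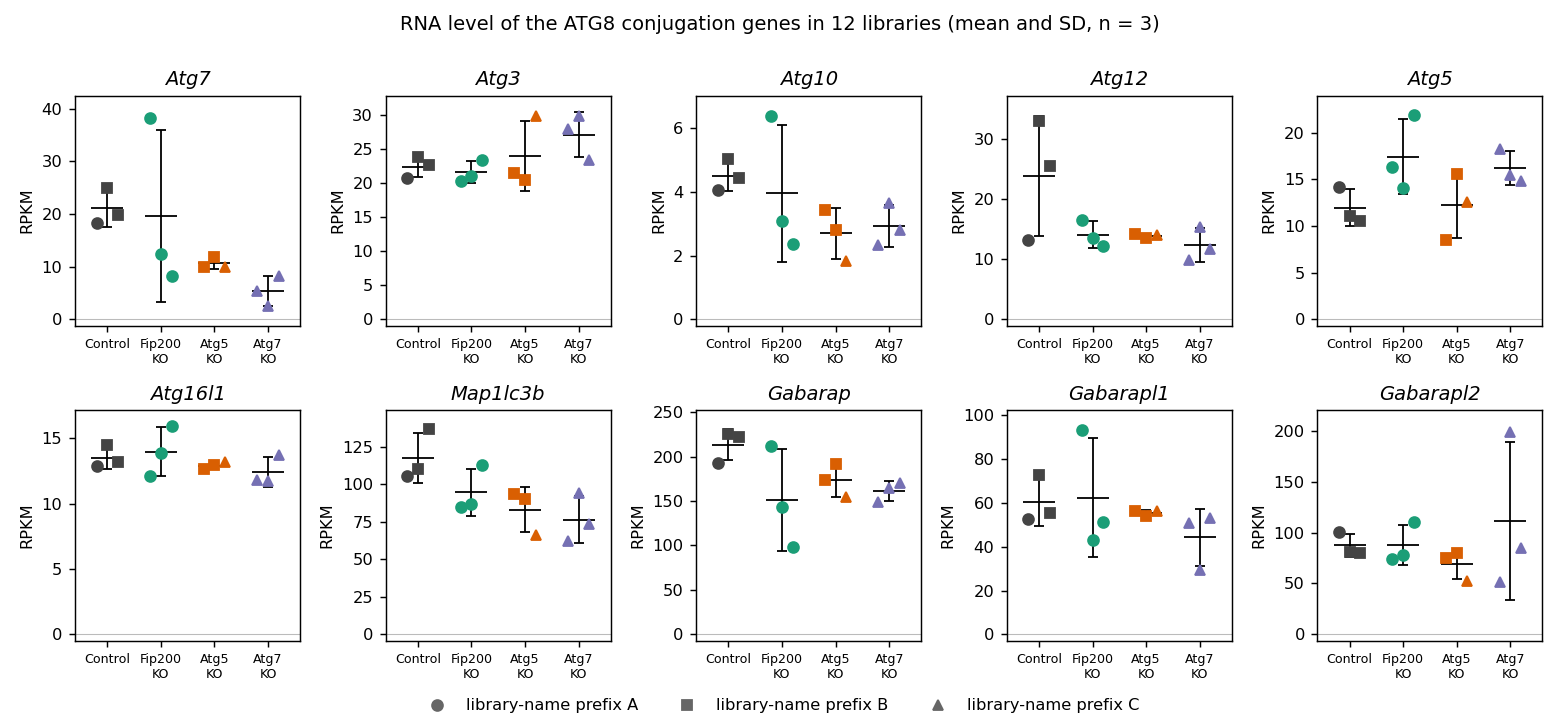
RPKM of the 10 genes (vertical axes, linear, each from 0) in the 3 libraries of control and of each KO, with 1 point per library, marker shape by library-name prefix and bars for the mean and SD of 3 libraries. Atg7 is below all control libraries in every Atg5 KO and Atg7 KO library, while its Fip200 KO libraries span 8.23 to 38.3 RPKM.

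The first question is whether loss of FIP200, ATG5 or ATG7 in these cells came with altered RNA of the conjugation genes. Each KO was compared with the same 3 control libraries by limma on log2(RPKM + 0.5), and calls required an adjusted p, over all genes tested, no higher than 0.1. On this scale a fold change understates the change of low genes, and in bulk RNA fewer cells of a kind and less RNA per cell cannot be told apart. In Fip200 KO cells 0 of 10 members were called, where 2.05% of all tested genes were, and 0 had an unadjusted p under 0.05, also by voom on the recovered reads. That background rests on single libraries: 242 genes were called with all libraries, 0 without control replicate 2 or 3, and 752 without Fip200 KO replicate 3. In Atg5 KO cells Atg7, Atg10 and Map1lc3b were lower, 3 of 10 members, where 41.5% of all tested genes were called and 18.7% were called lower. In Atg7 KO cells Atg7, Map1lc3b and Gabarap were lower, again 3 of 10, where 25.1% of all tested genes were called and 13.7% were called lower. No member was called higher in any of the 3 comparisons, where 22.9% of all tested genes were called higher in Atg5 KO cells and 11.3% in Atg7 KO cells. The shares of members called in these 2 KO groups were of the same order as those of all genes, so the counts set the members apart in neither. Without control replicate 2 there were 0 members called in Fip200 KO, 2 in Atg5 KO (Atg7 and Map1lc3b) and 1 in Atg7 KO (Atg7), and the genes called in all were 0, 4183 and 1218, against 242, 4914 and 2955 with it.

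With a change of at least 2-fold required as well, 1 member, Atg7, was called in Atg7 KO cells (10.1% of all tested genes), 0 in Atg5 KO cells (11.2%) and 0 in Fip200 KO cells (1.98%). The KO and control libraries did not overlap for 5 members in Atg7 KO cells (39.6% of all tested genes), 4 in Atg5 KO cells (50.4%) and 0 in Fip200 KO cells (24.1%). The median log2 fold change of the 10 members was −0.44 in Atg7 KO cells, −0.33 in Atg5 KO cells and −0.16 in Fip200 KO cells, beside −0.01, 0.06 and 0.02 over all tested genes. The 3 comparisons share their control libraries, so a control value that is high lowers all 3.

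**Figure D2:**
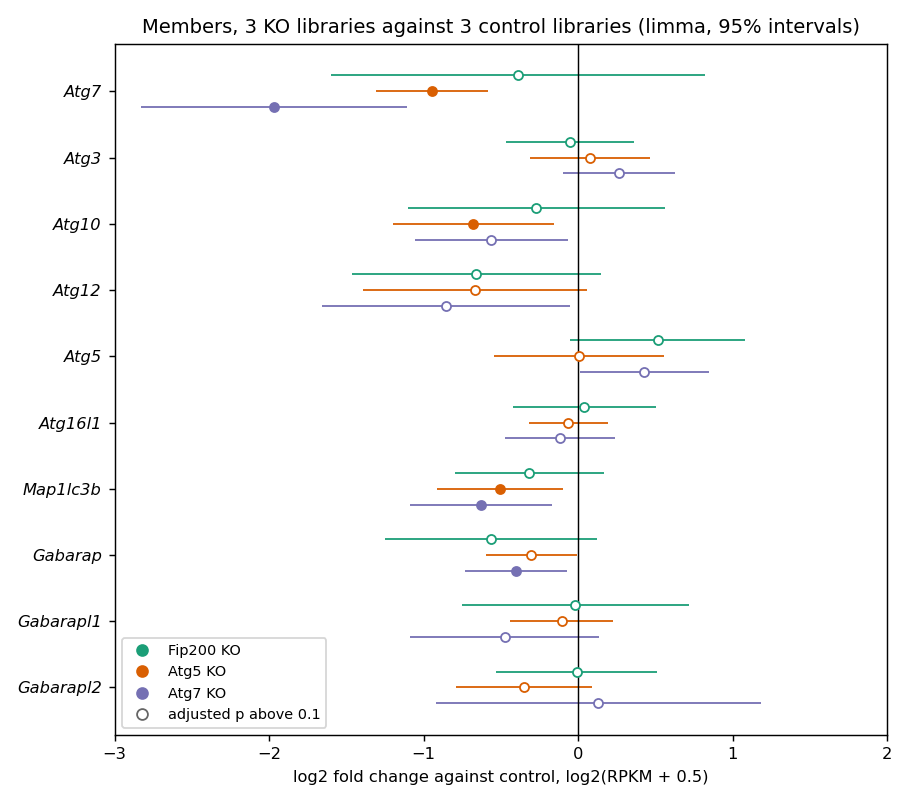
log2 fold change of each gene against control (horizontal axis, log2(RPKM + 0.5) scale) with the 95% interval from limma, for 3 KO against 3 control libraries; filled points are those called. The filled points are Atg7, Atg10 and Map1lc3b in Atg5 KO and Atg7, Map1lc3b and Gabarap in Atg7 KO, all below 0.

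Atg7 (identifier 74244), the E1-like enzyme that both reactions need, carried the largest change of the members. Its RNA was at 18.4, 25.0 and 19.8 RPKM in control replicates 1, 2 and 3. In Atg7 KO cells, where it is the targeted gene, it was at 5.40, 2.64 and 8.34 RPKM, from 376, 194 and 686 reads. All 3 values lay below every control value, but none was at 0, and the lowest and highest Atg7 KO libraries were themselves far apart. The log2 fold change was −1.97 (SE 0.37, 95% interval −2.83 to −1.11, adjusted p = 0.0216 by limma), a level 0.256 times that of the control. When the prefix was added as a term to a fit of all 12 libraries the value was −1.93 and the call was lost (adjusted p = 0.589), and within prefix C the log2 difference of the 3 Atg7 KO libraries from the single Atg5 KO library was −0.93.

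Atg7 RNA was also lower in cells in which Atg7 was not the target. In Atg5 KO cells it was at 9.99, 11.9 and 9.94 RPKM, below every control library and with little spread. The log2 fold change was −0.95 (SE 0.15, 95% interval −1.31 to −0.58, adjusted p = 0.0083 by limma), or 0.518 times the control level. Within prefix B, with 2 libraries of each group, the log2 difference was −0.995. The Atg5 KO call did not hold in the fit of all 12 libraries (adjusted p = 0.220) or with the prefix as a term (adjusted p = 0.409), although the value there was −0.95 and −0.995. In Fip200 KO cells Atg7 was at 38.3, 12.4 and 8.23 RPKM. One of these libraries was above and the other two were below all controls, and the log2 fold change of −0.39 had a 95% interval of −1.60 to 0.82 (adjusted p = 0.732 by limma).

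Cd68, a lysosomal protein used among the blood cell markers, moved with Atg7. It was at 91.7, 49.8 and 34.4 RPKM in control, at 11.2, 11.6 and 9.94 with Atg5 KO and at 22.7, 6.95 and 27.1 RPKM with Atg7 KO, and was called lower in both (log2 fold changes −2.26, adjusted p = 0.00640, and −1.70, adjusted p = 0.0798 by limma). In Fip200 KO libraries it was at 263, 19.1 and 15.9 RPKM, and the library at 263 is the one with Atg7 at 38.3. Ptprc, the defining marker of that list, was under 1 RPKM in every library, and the part of other cells in the Atg7 levels was not tested.

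Among the E2-like enzymes, Atg3 (67841), which hands ATG8 proteins to the lipid, stayed within a narrow range. It was at 20.8, 23.9 and 22.7 RPKM in control libraries. The values were 28.0, 29.9 and 23.4 RPKM with Atg7 KO, 21.6, 20.5 and 29.96 with Atg5 KO and 20.4, 21.05 and 23.5 with Fip200 KO. The groups overlapped, although 2 of 3 Atg7 KO libraries and 1 Atg5 KO library lay above all controls. Its log2 fold changes were 0.26 for Atg7 KO, 0.08 for Atg5 KO and −0.05 for Fip200 KO, with 95% intervals of −0.10 to 0.63, −0.31 to 0.47 and −0.47 to 0.36, and none was called.

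Atg10 (66795), which joins ATG12 to ATG5, was the least abundant member and was lower in Atg5 KO cells. It was at 4.06, 5.05 and 4.43 RPKM in control and at 3.44, 2.81 and 1.84 RPKM in Atg5 KO libraries, with no overlap. The log2 fold change was −0.68 (SE 0.22, adjusted p = 0.0571 by limma), and it was called in 3 of 6 fits that left out 1 library and not with the prefix as a term (−0.54, adjusted p = 0.464). In Atg7 KO cells Atg10 was at 2.34, 3.65 and 2.80 RPKM, again below every control library, with a log2 fold change of −0.56 that was not called (adjusted p = 0.111). With the prefix as a term this value was −0.00 and its adjusted p was 1.00. Fip200 KO libraries were at 6.40, 3.09 and 2.38 RPKM and enclosed the controls (−0.27, adjusted p = 0.727).

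Atg12 (67526), the ubiquitin-like protein of the first reaction, was the member with the widest spread in control cells relative to its mean (SD 41.7% of the mean). The control libraries were at 13.3, 33.1 and 25.5 RPKM, and the low one carries prefix A and the high ones prefix B. Of the listed fibroblast or mural markers, Dcn (0.125, 56.9 and 15.2 RPKM), Pdgfra (0.113, 9.02 and 2.26) and Pdgfrb (0.0187, 4.19 and 0.261) had the same order in these libraries. The others, Acta2 (0.820, 0.444 and 2.91 RPKM), Col1a1 (0.0356, 0.0785 and 0.0341) and Col1a2 (0.0202, 0.0162 and 0.00969), did not. Cdh5 had the opposite order (309.7, 116 and 271 RPKM). The Fip200 KO libraries were at 16.6, 13.7 and 12.2 RPKM, the Atg5 KO libraries at 14.2, 13.6 and 14.0 and the Atg7 KO libraries at 9.85, 15.5 and 11.8 RPKM. All 9 KO values thus lay below control replicates 2 and 3 and around control replicate 1. The log2 fold changes were in that order −0.66 (adjusted p = 0.390), −0.67 (adjusted p = 0.139) and −0.86 (adjusted p = 0.128 by limma), and none was called. In the fit of all 12 libraries Atg12 was called in Atg7 KO cells (−0.86, adjusted p = 0.0779). Within prefix B the log2 difference of Atg5 KO from control was −1.04, and with the prefix as a term it was called (adjusted p = 0.0755). Against control replicate 1 alone, within prefix A, the Fip200 KO libraries were at a log2 difference of 0.07. The part of the prefix or of other cells in these values was not tested further.

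Atg5 (11793), the acceptor of ATG12, was not lower in the cells in which it was the target. It was at 14.2, 11.1 and 10.6 RPKM in control and at 8.53, 15.5 and 12.6 RPKM in Atg5 KO libraries. The Atg5 KO libraries enclosed the controls, and the log2 fold change was 0.00 with a 95% interval of −0.55 to 0.55 (adjusted p = 0.994 by limma). A small insertion or deletion made by a guide need not lower the RNA, so this level does not check the labels. Atg5 was at 16.4, 14.0 and 21.9 RPKM in Fip200 KO (log2 fold change 0.52, adjusted p = 0.344) and at 18.2, 15.4 and 14.9 RPKM in Atg7 KO cells (0.43, adjusted p = 0.141). In Atg7 KO cells all 3 libraries were above all controls, but the difference did not pass the test.

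Atg16l1 (77040), whose protein places the ATG12-ATG5 conjugate on the membrane, had the tightest levels of the members. The control libraries were at 12.9, 14.5 and 13.2 RPKM, and the 9 KO libraries ran from 11.7 to 15.9 RPKM. The groups overlapped in each comparison. Its log2 fold changes were −0.12 for Atg7 KO, −0.06 for Atg5 KO and 0.04 for Fip200 KO, with 95% intervals of −0.48 to 0.24, −0.32 to 0.19 and −0.42 to 0.50.

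Map1lc3b (67443), which encodes LC3B, the ATG8 protein most used as a marker of autophagosomes, was lower in Atg7 KO as well as Atg5 KO cells. It was at 106, 110 and 137 RPKM in control, at 93.3, 90.2 and 66.1 in Atg5 KO and at 62.4, 93.9 and 73.2 RPKM in Atg7 KO libraries. Every Atg5 KO and Atg7 KO library was below every control library. The log2 fold change was −0.50 for Atg5 KO (SE 0.17, adjusted p = 0.0651 by limma) and −0.63 for Atg7 KO (SE 0.20, adjusted p = 0.0724), or 0.705 and 0.647 times the control level. Fip200 KO libraries were at 84.5, 86.7 and 113 RPKM and overlapped the controls (−0.31, adjusted p = 0.475). The call in Atg5 KO cells held in 3 of 6 fits without 1 library and that in Atg7 KO cells in 1 of 6. With the prefix as a term the values were −0.42 (adjusted p = 0.356) and −0.23 (adjusted p = 0.880).

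Gabarap (56486), the ATG8 gene with the most RNA, was lower in Atg7 KO cells by a small margin. It was at 193, 225 and 222 RPKM in control and at 149, 165 and 170 RPKM in Atg7 KO libraries, with no overlap. The log2 fold change was −0.40 (SE 0.14, adjusted p = 0.0975 by limma), and the call held in 4 of 15 alternatives, 1 of them among the 6 fits without 1 library. It was lost with no filter, with median-of-ratios scaling, by voom, in the fit of all 12 libraries and with the prefix as a term (−0.23, adjusted p = 0.904). Atg5 KO libraries were at 174, 192 and 154 RPKM, all below the lowest control, with a log2 fold change of −0.30 that was not called (adjusted p = 0.106). This difference was called in 2 of 15 alternatives, 1 of them among the 6 fits without 1 library. Fip200 KO libraries were at 211, 143 and 98.4 RPKM, a wide range in which 1 library lay among the controls (−0.56, adjusted p = 0.390).

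Gabarapl1 (57436) and Gabarapl2 (93739), the other two genes of the GABARAP branch, were not called in any comparison. Gabarapl1 was at 52.6, 72.9 and 55.6 RPKM in control, while the Fip200 KO libraries were at 93.3, 43.1 and 51.1, the Atg5 KO libraries at 56.1, 53.9 and 56.5 and the Atg7 KO libraries at 50.7, 29.3 and 53.0 RPKM. Its KO libraries overlapped the controls in each comparison. Gabarapl2 was at 101, 81.4 and 80.2 RPKM in control, while the Fip200 KO libraries were at 74.2, 78.5 and 111, the Atg5 KO libraries at 74.6, 80.3 and 52.3 and the Atg7 KO libraries at 51.1, 199 and 84.7 RPKM. The value of 199 RPKM in Atg7 KO replicate 2 was above every other Gabarapl2 value of the series. It set the direction of the comparison, since the log2 fold change in Atg7 KO cells was 0.13 with all libraries (95% interval −0.92 to 1.18) and −0.40 without that library (adjusted p = 0.267). The same library had the lowest Gabarapl1 and the lowest Atg7 of all 12.

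The 4 ATG8 genes were also compared as shares of their summed RPKM, a measure that the scaling of a library cannot move. In control cells Gabarap held 44.5% ± 1.65 (SD, n = 3), Map1lc3b 24.5% ± 2.78, Gabarapl2 18.4% ± 3.38 and Gabarapl1 12.6% ± 2.0. Map1lc3b held 19.5% ± 0.419 with Atg7 KO, 21.7% ± 1.69 with Atg5 KO and 24.4% ± 5.98 with Fip200 KO. The 3 Atg7 KO libraries, at 19.2% to 19.96%, lay below the control range of 22.5% to 27.7%. In an exact two-sided permutation test this gave p = 0.1, the smallest that 3 against 3 libraries allow, and an adjusted p of 0.857 over the 12 tests of shares. None of the other 11 shares had a p as low. Gabarapl2 reached 40.9% in Atg7 KO replicate 2 and 16.3% in the lowest Atg7 KO library. The summed RPKM of the 4 genes was 479 ± 23.3 in control, 394 ± 87.9 with Atg7 KO, 381 ± 46.0 with Atg5 KO and 396 ± 59.4 with Fip200 KO (exact permutation p = 0.2, 0.1 and 0.2 against control). Only the Atg5 KO libraries were all below the control libraries in this sum, and 3 against 3 cannot reach a p under 0.1.

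**Figure D3:**
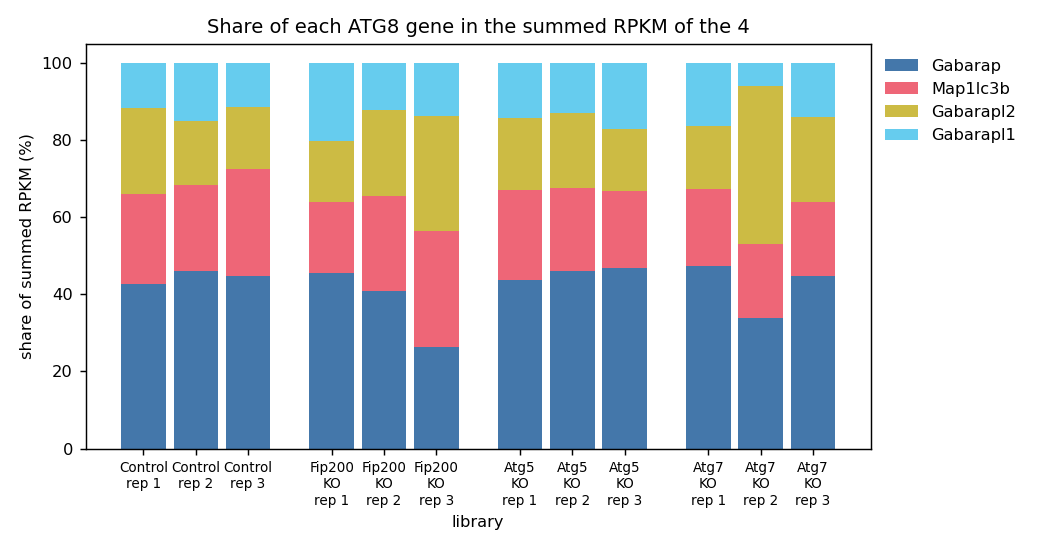
Share of each of the 4 ATG8 genes in their summed RPKM (vertical axis, percent, from 0 to 100) in each of the 12 libraries. Gabarap is the largest part in 10 libraries, the exceptions being Fip200 KO replicate 3 and Atg7 KO replicate 2.

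The KO groups were then compared with each other in 1 fit of all 12 libraries. For Atg5 KO against Fip200 KO, Atg7 KO against Fip200 KO and Atg7 KO against Atg5 KO, limma called 0 of 10 members and 0% of the 12233 genes tested in each. Voom on the recovered reads also called 0 genes in each. At an unadjusted p under 0.05 there were 927, 916 and 562 genes, and among the members only Atg7 in Atg7 KO against Fip200 KO, with a log2 difference of −1.58 (SE 0.49, adjusted p = 0.549). Without Fip200 KO replicate 3 this difference was called, alone of the members, and the 0 genes called became 588 in Atg5 KO against Fip200 KO and 775 in Atg7 KO against Fip200 KO. Between Atg7 KO and Atg5 KO cells the libraries of 2 members did not overlap (16.6% of all tested genes), one of them Atg7, for which the log2 difference was −1.02 with a 95% interval of −2.09 to 0.05 (adjusted p = 1.00). A lower Atg7 level in Atg7 KO than in Atg5 KO cells was therefore not shown by this test.

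The proximal promoters of the members were searched for CACGTG, the E-box core that TFEB and related factors of lysosomal and autophagy genes bind. The letters read the same on both strands. RefSeq windows (GRCm38.p6, 250 bases before to 50 after a start) were found for 8 members, and 3 of these 8 held the motif (37.5%), namely Atg7, Atg3 and Atg5. Among all 32851 windows 7.15% held it, and among the 9699 tested genes with a window 11.9% did. The motif is shown on the plus strand with up to 30 bases on each side, ending at the start site where that comes first (Atg5), at chr6:114670934-114670999 for Atg7, chr16:45158705-45158793 for Atg3 and chr10:44268295-44268338 for Atg5, with the motif in capitals.
Atg7: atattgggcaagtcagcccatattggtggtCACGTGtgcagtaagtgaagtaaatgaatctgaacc
Atg3: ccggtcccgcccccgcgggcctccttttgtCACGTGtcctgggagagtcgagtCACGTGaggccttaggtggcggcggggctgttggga
Atg5: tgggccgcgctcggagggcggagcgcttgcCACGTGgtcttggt
Atg3 held the motif 2 times, and the Atg7 window belongs to a start 27969 bases inside the RefSeq gene. Of these 3 genes Atg7 was lower in 2 KO groups, while Atg3 and Atg5 were called in none. A match is a stretch of letters, and binding was not measured.

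Other genes of the pathway were set beside the members, with calls from the reported fit only. Whether these calls hold in the alternative fits was not examined. The genes form 3 lists. The first held the ATG8 paralog Map1lc3a, the ATG4 proteases that trim and release ATG8 proteins, the ATG16L1 paralog Atg16l2 and Tecpr1, a partner of ATG12-ATG5. Of its 7 genes, 5 were lower in Atg5 KO cells, 2 were lower in Atg7 KO cells, none was called in Fip200 KO cells and none was higher. Of all tested genes 18.7% (Atg5 KO) and 13.7% (Atg7 KO) were called lower, 22.9% and 11.3% higher, and 2.05% were called in Fip200 KO. Tecpr1 was at 40.4, 32.3 and 46.7 RPKM in control, at 14.7, 18.03 and 17.7 in Atg5 KO and at 14.2, 15.3 and 15.4 RPKM in Atg7 KO libraries. These groups were well apart, with log2 fold changes of −1.21 (adjusted p = 0.00577) and −1.37 (adjusted p = 0.00974 by limma). Fip200 KO libraries of Tecpr1, at 30.3, 19.4 and 11.8 RPKM, were also below all controls, but were not called (−1.02, adjusted p = 0.222). The proteases Atg4a (−1.02, adjusted p = 0.0090), Atg4b (−0.40, adjusted p = 0.0463) and Atg4c (−0.58, adjusted p = 0.0679) and the paralog Map1lc3a (−1.10, adjusted p = 0.0921) were lower in Atg5 KO cells. Atg4c was also lower in Atg7 KO cells (−0.80, adjusted p = 0.0633). In Fip200 KO cells Map1lc3a had the largest value of the list, −1.34 (adjusted p = 0.156, not called), and its control libraries ran from 14.7 to 41.1 RPKM with the lowest one in prefix A.

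The second list held 8 genes that act before conjugation, in recruitment and lipid transfer. None was called in Fip200 KO cells (2.05% of all tested genes), including Rb1cc1, which encodes FIP200 and was at 6.43, 8.27 and 7.73 RPKM in control and at 5.18, 6.84 and 2.06 RPKM in Fip200 KO libraries (−0.74, adjusted p = 0.404). The largest value there was that of Wdr45, a phosphoinositide-binding protein (−1.02, adjusted p = 0.150). In Atg5 KO cells 3 were lower and 2 higher, beside 18.7% and 22.9% of all tested genes. Lower were Wdr45 (−0.72, adjusted p = 0.0437), Wipi1 (−0.59, adjusted p = 0.0205) and the scramblase gene Atg9a (−0.62, adjusted p = 0.0315), and higher were the lipid transfer gene Atg2a (0.66, adjusted p = 0.0109) and Wipi2 (0.44, adjusted p = 0.0209), whose protein recruits ATG16L1. In Atg7 KO cells 2 were lower, Wdr45 (−0.79, adjusted p = 0.0574) and Wipi1 (−0.69, adjusted p = 0.0559), and none was higher, beside 13.7% and 11.3% of all tested genes.

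The third list held 8 genes whose proteins bind lipidated ATG8 or fuse the autophagosome with the lysosome. None was called in Fip200 KO cells (2.05% of all tested genes), where Optn had the largest value (−0.95, adjusted p = 0.270). Optn, a selective autophagy receptor, was at 45.6, 39.2 and 41.0 RPKM in control, at 18.2, 20.3 and 7.69 in Atg5 KO and at 15.6, 19.4 and 15.9 RPKM in Atg7 KO libraries. It was lower in both, by a log2 fold change of −1.53 (adjusted p = 0.0194) and −1.29 (adjusted p = 0.00879 by limma), with no overlap. Plekhm1, a tether between autophagosome and lysosome, was lower in both as well (−0.80, adjusted p = 0.0253, and −0.90, adjusted p = 0.0433). The receptor gene Nbr1 was lower in Atg7 KO cells (−0.53, adjusted p = 0.0770), and the SNARE gene Stx17 was higher in Atg5 KO cells (0.57, adjusted p = 0.0211). Counted over the list, 3 were lower and 0 higher in Atg7 KO cells (13.7% and 11.3% of all tested genes), and 2 were lower and 1 higher in Atg5 KO cells (18.7% and 22.9%).

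**Figure D4:**
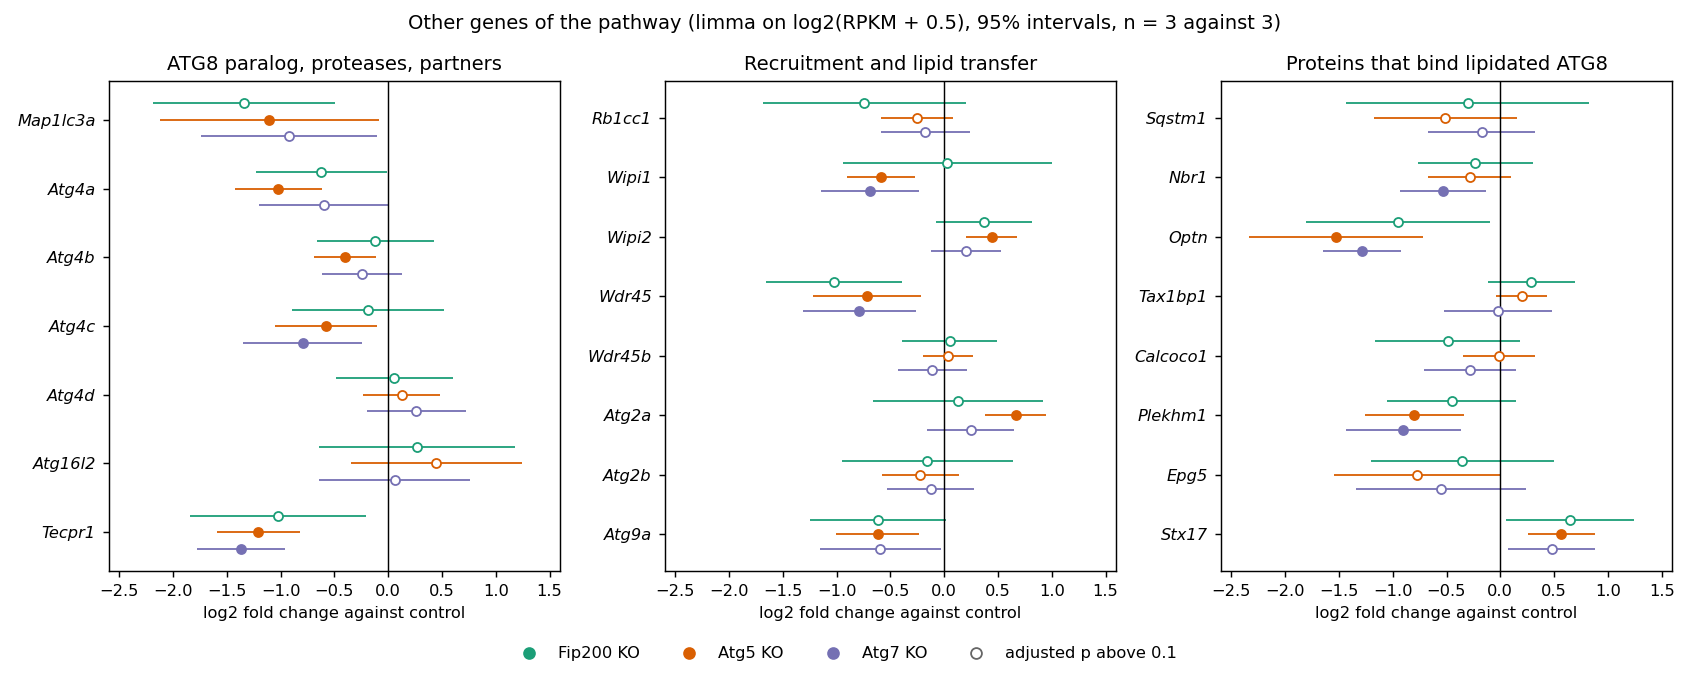
log2 fold change against control (horizontal axes, log2(RPKM + 0.5) scale) with the 95% interval from limma for the 7, 8 and 8 genes of the 3 lists, coloured by KO; filled points are those called. Tecpr1 at −1.21 and −1.37 and Optn at −1.53 and −1.29 stand furthest below 0 among the filled points of Atg5 KO and Atg7 KO cells.

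For the targeted members, the genes with the most similar pattern over the 12 libraries were listed as a description. Among 12233 genes the log2 level of Atg7 was closest to Plek (Pearson r = 0.95), Etfbkmt (0.95) and Cltc (0.94), and that of Atg5 to Xrcc3 (0.78), Mgat4a (0.77) and Hbs1l (0.76). The 12 points share groups, prefixes and the total by which each library was scaled.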

How the data were processed

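RNA of 12 libraries (4 groups of 3) was sequenced after preparation with a directional kit. Per the paper's methods, reads were adapter-trimmed, aligned with TopHat2, counted with Bioconductor packages and compared with edgeR. The genome build, the annotation and the versions are not given in the sources used here. The authors deposited 1 table per KO, with RPKM values for each library and with group means, a signal on the scale of reads divided by size factors. The RPKM unit is not named in the tables and was read from the values. Its further columns hold the results of the authors' own test, and these were not used.

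Whole reads were recovered from the RPKM values and the group means for 14851 of 14851 genes (100% of values whole within 0.02 reads). Group means served only for this step. Genes that reached 0.5 RPKM in 3 or more of the fitted libraries were tested on log2(RPKM + 0.5) with limma 3.58.1 (eBayes with trend) in R 4.3.3, with Benjamini-Hochberg adjustment over all genes tested. Each KO was fitted with control in 6 libraries, and KO groups were compared in 1 fit of 12. Calls used an adjusted p of at most 0.1, alone or with a 2-fold change. Shares were tested by exact permutation in scipy 1.17.1. The fits were tested on simulated data. Alternatives were the pseudocount, the filter, the scaling, voom on recovered reads, the fit of all libraries, the library-name prefix, a replicate block and leaving out each library. No library duplicated another of its group (lowest chi-square per degree of freedom 8.19).

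The text gives all 10 members, and of the 3 lists the genes called against control in any comparison, the one with the largest change where a comparison called none, and Rb1cc1 as the target of Fip200 KO. It adds the 3 genes most correlated with Atg5 and with Atg7. Members, lists and rules were chosen with earlier results of these data known. Sequences are from GENCODE M21 and RefSeq. Guide and protein sequences were not used here, and RefSeq coordinates served only for the promoter windows.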

Additional observations from a re-analysis of the deposited data

How the results depend on the processing

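Each member had at least 64 reads in every library. In Atg5 KO cells 3 members were called in the reported fit, 0 when all 12 libraries entered 1 fit and 1 (Atg12) with the prefix as a further term in that fit (4914, 2328 and 787 genes called in all). Without 1 library the count ran from 1 (without control replicate 3 or Atg5 KO replicate 2) to 5 (without control replicate 1, when Atg12 and Gabarap were added). With a 2-fold change the 0 members became 1 under median-of-ratios scaling (Atg7), 1 with the prefix as a term (Atg12) and 0 to 2 without 1 library, with 1331 genes called in all in the reported fit, 1318, 663 and 985 to 1502. In Atg7 KO cells 3 members were called in the reported fit, 3 when all 12 libraries entered 1 fit (Atg12 in place of Gabarap) and 0 with the prefix as a further term (2955, 2448 and 38 genes in all), and 2, without Gabarap, with no filter, with median-of-ratios scaling and by voom. Without 1 library the count ran from 1 (without control replicate 2 or 3, or Atg7 KO replicate 1 or 3) to 5 (without Atg7 KO replicate 2, when Atg10 and Atg12 were added). With a 2-fold change the 1 member became 0 with the prefix as a term and ran from 1 to 2 without 1 library (1191, 38 and 576 to 1514 genes in all). Atg7 was called in all 6 fits without 1 library in Atg7 KO as well as Atg5 KO cells. Between Atg7 KO and Fip200 KO the count was 0 to 1 without 1 library, by both rules, and 1 only without Fip200 KO replicate 3. Without 1 library the genes called in all ran from 2785 to 4917 in Atg5 KO and from 707 (without control replicate 3) to 3875 in Atg7 KO cells. In Fip200 KO cells the count was 0 in all 15 alternatives, which shows no stability, since the genes called in all were 0 without control replicate 2 or 3, 47 with the prefix as a term and at most 1155 (all 12 libraries in 1 fit), against 242.

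Replicate numbers are shared between groups in the labels, but same-numbered libraries did not deviate together (correlations of −0.50 to 0.25 over 18 pairs), so the numbers were not taken as pairs. With the replicate block, 2 members were called in Atg7 KO cells, 2 in Atg5 KO cells and 0 in Fip200 KO cells, and 1896, 3974 and 93 genes in all, against 2955, 4914 and 242 without it. The calls of Map1lc3b and Gabarap were lost there and that of Atg12 in Atg7 KO cells was gained.

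Direction changed for uncalled members only. With the prefix as a term the log2 fold change was 0.055 for Atg3, 0.073 for Atg12 and 0.16 for Gabarapl1 in Fip200 KO cells, −0.29 for Atg3 in Atg7 KO cells and −0.14 for Atg3 in Atg5 KO cells, and with median-of-ratios scaling it was −0.051 for Atg5 in Atg5 KO cells. Without 1 library the values in Fip200 KO cells ran from −1.01 to 0.064 for Atg7, −0.054 to 0.13 for Atg16l1, −0.35 to 0.21 for Gabarapl1 and −0.19 to 0.10 for Gabarapl2. In Atg5 KO cells they ran from −0.091 to 0.18 for Atg3, −0.18 to 0.23 for Atg5 and −0.20 to 0.037 for Gabarapl1, and in Atg7 KO cells from −0.40 to 0.58 for Gabarapl2. The share of summed RPKM, as KO minus control in percentage points, ran without 1 library from −3.08 to 2.89 for Map1lc3b, −10.9 to −1.30 for Gabarap, 0.381 to 4.32 for Gabarapl1 and 0.789 to 7.64 for Gabarapl2 in Fip200 KO, and from −5.25 to 1.59 for Gabarap, −2.65 to 2.46 for Gabarapl1 and 0.901 to 13.2 for Gabarapl2 in Atg7 KO cells. The cause of these changes was not tested.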
